A study of Homo sapiens with 6 samples.

Results

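U2OS cells starved for 2 h were compared with unstressed U2OS cells across all transcripts and all 4 bases, by the share of reverse transcription (RT) stops that each transcript and each base took. U2OS is a human osteosarcoma line. The unstressed cells were grown in DMEM with serum, and the starved cells were held in HBSS with Ca++ and Mg++, a salt solution without serum or amino acids. Both cultures were treated with 8% dimethyl sulfate (DMS) for 5 min, and their poly(A)+ RNA was reverse transcribed in 150 mM K+. The other 4 libraries came from isolated poly(A)+ RNA, of which 2 were folded and treated with DMS in 150 mM K+ or Li+ and 2 had no DMS. There was 1 library per condition, so none of the differences below has a replicate check or a p-value, and every interval covers counting error only. In addition, a share is relative to all other transcripts, and in a bulk sample fewer cells of a kind and less RNA per cell cannot be told apart.

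DMS methylates adenine and cytosine at the positions used for base pairing, and these adducts stop reverse transcriptase, so that stops at A and C mark unpaired bases. It also methylates guanine at a position that is not used in Watson-Crick pairs and that is engaged in G-quartets. Stops at G and U arise mainly where the enzyme halts without such an adduct, for instance at a stable fold or a break. Withdrawal of serum and amino acids is known to lower growth-factor signalling and mTORC1 activity, to shift mRNAs of the translation machinery out of polysomes and to raise the translation of ATF4, a transcription factor of amino acid synthesis genes.

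The unstressed library listed 12999691 stops at 1528180 nucleotides and the starved library 24014417 stops at 2144756 nucleotides, a total 1.85-fold larger. The other libraries listed between 21480565 and 35371061 stops. A nucleotide was listed only from 3 stops upward, so rare stops are missing, more of them from the shallower library. Of 14417 transcripts with a listed stop in either in vivo library, 12052 had stops in both and 2998 had at least 500 in both. These 2998 transcripts, which held 87.3% of the unstressed and 90.2% of the starved stops, are described here. Where 2 values stand side by side, the unstressed library comes first. Markers of mesenchymal cells were present, with VIM at 45404 and 71722 stops and COL1A1 at 8927 and 3020 stops in the unstressed and the starved library. The summed level of the 8 listed mesenchymal markers was 6050 ppm (stops per 1000000 listed stops) in unstressed cells and 3660 in starved cells, with 2 and 1 of them at 0, and between 5780 and 6210 in the other 4 libraries. Markers of other cell types (ALB, CDH1, EPCAM, HBB, KRT19, PTPRC) summed to 60 and 84 stops in the 2 in vivo libraries, with 4 and 3 of 6 at 0.

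Transcript shares differed widely between starved and unstressed cells. The share was at least 2-fold higher in the starved library for 428 transcripts (14.3% of those compared) and at least 2-fold lower for 848 (28.3%), while 1722 lay within 2-fold. The log2 ratio had a median of -0.14, ran from -2.49 to 1.45 between its 5th and 95th percentiles and had extremes of -3.99 and 3.26. Of the 1276 transcripts past 2-fold (42.6%), 1128 had a 95% interval that stayed clear of 2-fold. The standard deviation of the log2 ratio was 1.22 over transcripts for this pair. For the 6 pairs that can be formed among the 4 isolated-RNA libraries it lay between 0.107 and 0.143, and at most 0.133% of transcripts were past 2-fold. Both in vivo libraries stood apart from these 4, with a standard deviation of 0.657 to 0.712 for the unstressed and 1.06 to 1.10 for the starved library.

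The counts of transcripts past 2-fold moved with the way stops were counted, and the causes of these moves were not tested. In the files, the count of a nucleotide divided by its deposited ratio was 1 value for each base of each transcript. It was read here as the mean of that base, although the methods of the study speak of a mean over the whole transcript. On this reading the mean, with the base composition of the matched GENCODE transcript, gives a total for the transcript. This total includes the nucleotides below the listing limit, but only for a base with a listed nucleotide. The matched transcript may be another, longer isoform than the one counted, and its length then enters the total. With the starved library thinned to the unstressed total, 403 of 2192 transcripts were at least 2-fold higher and 396 lower, and the median turned to 0.14. From stops at G and U only the counts were 973 and 724, with a median of 0.28. On the totals 201 of 2900 matched transcripts (6.93%) were at least 2-fold higher and 690 (23.8%) at least 2-fold lower, and the standard deviation of the log2 ratio was 0.94. The log2 ratios of both kinds correlated across transcripts with r = 0.99, which is a description over transcripts that share 1 library per side. The standard deviation was thus smaller than that of listed stops, and both values are given for part of those named below.

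The 15 transcripts with the highest ratio are taken first. KIF20B, a kinesin of late mitosis, had 518 stops (39.8 ppm) in unstressed cells and 9168 (382 ppm) in starved cells, a log2 ratio of 3.26 (95% interval 3.13 to 3.39), or 2.01 on the totals. Its share in the 4 isolated-RNA libraries was 245 to 303 ppm, so that the unstressed library was the low one and the starved library the high one. NDC80 and NUF2, which form part of the outer kinetochore, had 46.0 and 67.8 ppm in unstressed cells and 255 and 311 in starved cells. SMC2, a condensin subunit, stood at 46.7 and 257 ppm, and HMMR, which binds microtubules of the spindle, at 64.1 and 310. For each of these 5 transcripts the shares in isolated RNA lay between the 2 in vivo values. Of the 38 transcripts of the mitosis list, which holds KIF20B, SMC2 and HMMR but not NDC80 or NUF2, 10 were at least 2-fold higher and 9 lower, so that no common direction is read from them.

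Among the other transcripts with the highest ratio, KCNQ1OT1, a long antisense noncoding RNA of an imprinted locus, had 730 and 11884 stops in the unstressed and the starved library (log2 ratio 3.14, or 2.08 on the totals). Where the counting did not separate strands, reads of an antisense RNA and of the gene opposite cannot be told apart. SHOC1, a meiotic recombination factor, stood at 49.2 and 383 ppm, and USP16, a deubiquitinase of histone H2A, at 51.9 and 331. PMAIP1, the pro-apoptotic protein NOXA, stood at 41.1 and 205, and TAX1BP1, an autophagy receptor, at 50.4 and 243. CEBPZ, COPS2, DNAJC2 and DNTTIP2 were 4.66-fold to 4.81-fold higher in the starved library. All 15 transcripts of this group had between 518 and 931 stops in the unstressed library, near the minimum of 500, and on the totals the log2 ratio of the 14 that were matched was 1.37 to 2.08.

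The 15 transcripts with the lowest ratio had 3902 to 20221 stops in unstressed cells and 510 to 3072 in starved cells. EIF4G1, the scaffold of the cap-binding complex, had 7849 stops (604 ppm) in unstressed cells and 931 (38.8 ppm) in starved cells, a log2 ratio of -3.96 (95% interval -4.06 to -3.86), or -2.96 on the totals. Isolated RNA gave 878 to 951 ppm for EIF4G1, above both in vivo values. The filamins FLNA and FLNC, which cross-link actin, stood at 1560 and 128 ppm and at 522 and 43.1 ppm. FSCN1, which bundles actin, stood at 317 and 24, and CAVIN1, a coat protein of caveolae, at 570 and 44.7. FASN, the fatty acid synthase, stood at 403 and 32.9 ppm in the unstressed and the starved library, against 523 to 578 in isolated RNA.

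SFN, a 14-3-3 protein, had 437 and 28.4 ppm in the unstressed and the starved library, and ARHGDIA, an inhibitor of small GTPases, had 818 and 55. CLU, a secreted chaperone, stood at 431 and 31.5, BSG, a partner of lactate transporters, at 534 and 39.9, and LMNB2, a lamin, at 398 and 31.6. H1-10, a linker histone, stood at 501 and 40.4, PRPF19, a splicing factor, at 300.2 and 23.2, and PRRC2A at 333 and 21.7. The lowest value of all, a log2 ratio of -3.99, belonged to a transcript that no table here paired with a symbol. On the totals the log2 ratio of the 14 with a symbol was -3.16 to -2.63.

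Among the 10 transcripts with the most stops in unstressed cells, the changes ran both ways. EEF1A1, the elongation factor that delivers aminoacyl-tRNA, had 208307 stops (16000 ppm) in unstressed cells and 639822 (26600 ppm) in starved cells, a log2 ratio of 0.73. RPL4 (log2 ratio 0.77) and RPL41 (0.74) were higher by a like amount. GAPDH stood at 16100 and 13000 ppm (log2 ratio -0.31), and RPLP1, RPLP0 and RPS2 had log2 ratios of -0.15, -0.31 and -0.77. TUBB, a beta-tubulin, stood at 6360 and 2970 ppm, ACTB, the cytoplasmic beta-actin, at 5710 and 992 and PKM, the pyruvate kinase of the last step of glycolysis, at 4710 and 626. The log2 ratios of TUBB, ACTB and PKM were -1.10, -2.53 and -2.91, and on the totals -1.06, -2.46 and -2.81. On the totals the log2 ratios of all 10 moved by 0.11 or less.

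The ratio followed the GC content of the transcript. Of the 2998 transcripts, 2900 were matched to a GENCODE transcript, and across them the log2 ratio had r = -0.74 with GC content, or -1.17 on the log2 scale per 10 percentage points of GC. This r describes transcripts of 1 pair of libraries and is no test. The median log2 ratio was 1.25 for the 81 transcripts under 36% GC, of which 54 were at least 2-fold higher and 0 at least 2-fold lower. It was -1.89 for the 202 transcripts over 60% GC, of which 0 were at least 2-fold higher and 164 at least 2-fold lower. The transcripts at least 2-fold higher had a median GC content of 39.3%, those at least 2-fold lower 54.9%, and all together 46.0%. The relation was present at each base alone, with r = -0.74 for stops at A, -0.71 at C, -0.74 at G and -0.66 at U. On the totals it was -0.73, with medians of 0.87 and -1.54 in the lowest and the highest GC band.

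**Figure D1:**
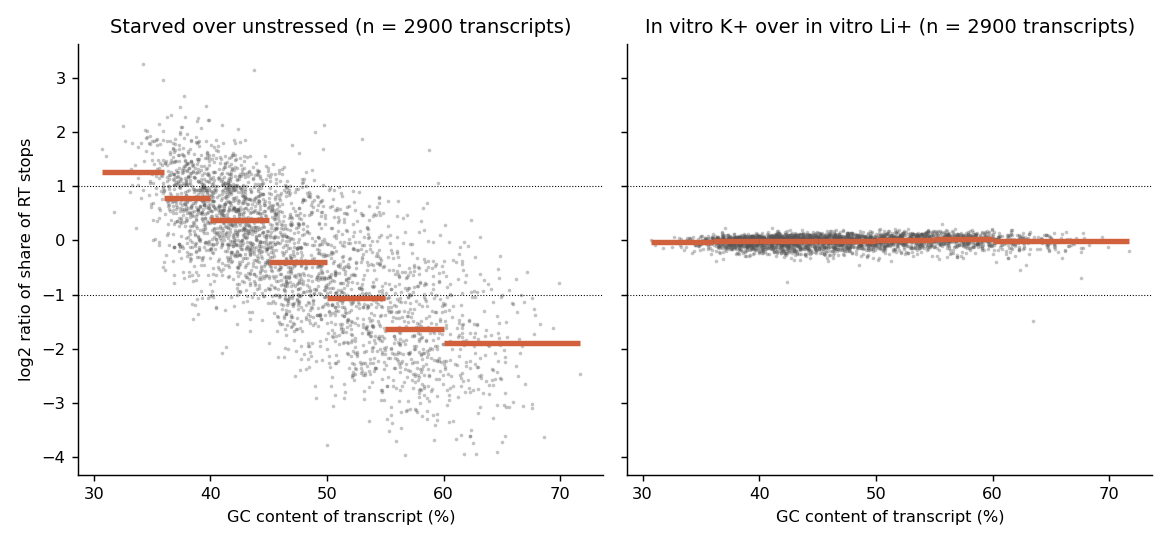
Each point is a transcript, with its GC content in percent on the x axis and the log2 ratio of its share of RT stops on the y axis, for starved over unstressed (left) and in vitro K+ over in vitro Li+ (right). Orange bars are medians of GC bands and dotted lines mark 2-fold, and the left medians descend from 1.25 to -1.89 while the right ones stay near 0.

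Each in vivo library departed from isolated RNA along GC content, in opposite directions. The unstressed library against the 4 isolated-RNA libraries had slopes of 0.57 to 0.65 on the log2 scale per 10 percentage points of GC, and the starved library slopes of -0.60 to -0.52. In the band under 36% GC the median log2 ratio to isolated RNA was -0.80 for the unstressed and 0.38 for the starved library, and in the band over 60% it was 0.73 and -1.12. Whether GC content, the DMS treatment, library preparation or RNA levels in the cells made this gradient was not tested, and with 1 library per condition the library and the condition cannot be told apart.

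A gradient of starved over unstressed stops with local GC content was also present inside transcripts. In each of 2699 transcripts the stops at A were divided by the GC content of the next 25 nt into a GC-rich and a GC-poor set. The log2 ratio of starved over unstressed was lower in the GC-rich set in 2474 transcripts (91.7%), with a median difference of -0.43. The same measure had a median of 0.00 for in vitro K+ against Li+, 0.07 for unstressed against in vitro K+ and -0.34 for starved against in vitro K+. Inside transcripts the unstressed library thus lay near in vitro K+, unlike across transcripts. Over all stops at A, those with under 30% GC in the next 25 nt made up 11.5% in unstressed cells and 16.7% in starved cells. Those with 70% GC or more made up 3.84% and 1.60%. As a share of all listed stops of the library, the log2 ratios of the 2 classes were 0.57 and -1.23.

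Single nucleotides did not all follow this gradient, as the A with the most GC-poor and the A with the most GC-rich next 25 nt in the transcripts with the most stops show. These 26-base windows (GRCh37, the A in capitals) lie on the plus strand for GAPDH and RPLP1 and on the minus strand for EEF1A1.
GAPDH, GC-poor, chr12:6645751-6645866, coding sequence of exon 3 across a junction: Aactacatggtttacatgttccaata
GAPDH, GC-rich, chr12:6647473-6647498, 3′ UTR in exon 9: Aggggaggggcctagggagccgcacc
EEF1A1, GC-poor, chr6:74227317-74227342, 3′ UTR in exon 8: Agttttaagttattagtttttaaaat
EEF1A1, GC-rich, chr6:74227566-74227591, coding sequence of exon 8: Aggctgctggagctggcaaggtcacc
RPLP1, GC-poor, chr15:69747845-69747870, coding sequence of exon 4: Aaacctcttttataacatgttcaata
RPLP1, GC-rich, chr15:69745246-69745271, 5′ UTR in exon 1: Agcaccgcgtccggcagcgccagccc

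In EEF1A1 the GC-poor A had 485 stops in unstressed cells and 2066 in starved cells and the GC-rich A 323 and 677, so that their log2 ratios as a share of A and C stops of EEF1A1 were 0.66 and -0.37. In RPLP1 the stops were 266 and 1204 at the GC-poor A and 168 and 611 at the GC-rich A, with log2 ratios of 1.63 and 1.32. GAPDH went the other way, with 385 and 771 stops at the GC-poor A (log2 ratio 0.63) and 229 and 600 at the GC-rich A (1.03).

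Because GC content moved with the ratio, each transcript was also set against the median of its GC band. The standard deviation fell from 1.22 to 0.824, and 329 transcripts (11.3%) lay at least 2-fold above and 323 (11.1%) at least 2-fold below the median of their band. Of the 415 matched transcripts that were at least 2-fold higher as measured, 107 were also 2-fold above their band, and of 822 that were lower, 242 were also 2-fold below. The remaining spread moved with the length of the matched GENCODE transcript. The 355 transcripts of up to 1000 nt had a median of 0.90 above their band, with 157 at least 2-fold above and 2 at least 2-fold below, and the 839 transcripts over 4000 nt a median of -0.28, with 28 above and 132 below.

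Ribosomal protein transcripts lay above the median of all transcripts as a group. The unstressed and the starved shares of RPL9 were 3280 and 7190 ppm, a log2 ratio of 1.13, and those of RPL5 were 1940 and 3550. Of 85 such transcripts, 26 (30.6%) were at least 2-fold higher in the starved library and 0 lower, with a median log2 ratio of 0.74 and a range of -0.99 to 2.13, against 14.3% higher and a median of -0.14 over all transcripts. Against transcripts of like GC their median was 1.15, with 52 of 84 at least 2-fold above their band, against 11.3% over all transcripts, and 0 below. Many are short, and short transcripts lay above their band in general: of 49 ribosomal protein transcripts up to 1000 nt 39 were 2-fold above (median 1.38), and of 306 others up to that length 118 were (median 0.85). Both in vivo libraries had them above isolated RNA, by a median of 0.47 in unstressed cells and 1.13 in starved cells. Ribosomal protein genes have many near-identical pseudogenes, so that reads can be lost or misplaced where unique positions were required.

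Host RNAs of small nucleolar RNAs carry the same 5′ sequence type (a terminal oligopyrimidine tract) as ribosomal protein mRNAs. ZFAS1 went from 231 to 745 ppm, SNHG6 from 243 to 697 and GAS5 from 222 to 595, and 4 of 11 (36.4%) were at least 2-fold higher and 0 lower, against 14.3% and 28.3% over all transcripts, with a median of 0.93. The lowest was SNHG7, at 157 and 112 ppm (log2 ratio -0.48). Against like GC, 9 of 11 lay 2-fold above their band, against 11.3% over all transcripts and 38.6% of non-ribosomal transcripts up to 1000 nt. Length was not taken into account for this list. The 46 translation factors had 6 higher (13.0%), 11 lower (23.9%) and a median of -0.11, near the values over all transcripts. EIF3E, a subunit of the initiation factor that holds the small ribosomal subunit, stood at 1080 and 3190 ppm (log2 ratio 1.57), and EIF4G1 had the lowest value of the list.

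Transcripts of mitochondrial oxidative phosphorylation also had a median above that of all transcripts. COX7B, a subunit of cytochrome c oxidase, stood at 493 and 1340 ppm (log2 ratio 1.44), CYCS, cytochrome c, at 670 and 1240 and ATP5PB, of ATP synthase, at 899 and 1410. Of 75 transcripts, 16 (21.3%) were at least 2-fold higher and 6 (8.0%) lower, against 14.3% and 28.3% over all transcripts, with a median of 0.50, or 0.85 against like GC. Length was not taken into account for this list, and all non-ribosomal transcripts up to 1000 nt also had a median of 0.85 above their band. Of 15 glycolysis transcripts, 0 were at least 2-fold higher and 10 (66.7%) lower, against the same shares over all transcripts, with a median of -1.49. ALDOA, aldolase A, stood at 1440 and 314 ppm, ENO1, an enolase, at 3550 and 1260 and TPI1 at 1770 and 630. LDHB was the highest, at 2700 and 5340 (log2 ratio 0.98), and LDHA had a log2 ratio of -0.21. The median GC content of the glycolysis list was 53.6%, and against like GC its median was -0.37, with 2 of 14 at least 2-fold above and 2 below, where 11.3% and 11.1% were over all transcripts.

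Serum-responsive transcripts had a low median. CCN1, a matrix protein made early after serum addition, stood at 604 and 72.5 ppm (log2 ratio -3.06), and ID1, an inhibitor of differentiation factors, at 714 and 125 (-2.52). IER3 stood at 295 and 31.4, CCND1, cyclin D1, at 182 and 28.4, CCN2 at 231 and 63.2 and the transcription factor MYC at 167 and 49.1. Of 12 transcripts, 0 were at least 2-fold higher and 10 (83.3%) lower, against 28.3% over all transcripts, with a median of -2.01. ZFP36L1 (log2 ratio 0.04) and ANKRD1 (0.98) were not among the 10. Relative to like GC, 5 of 11 were 2-fold below their band and 0 above, against 11.1% and 11.3% over all transcripts, with a median of -0.88. In isolated RNA the group was nearer to the unstressed library, with a median of -0.44 for unstressed and -2.21 for starved over isolated RNA.

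Of 15 collagen and matrix transcripts, 12 (80.0%) were at least 2-fold lower and 0 higher, against 28.3% and 14.3% over all transcripts, with a median of -1.44. SPARC, a collagen-binding glycoprotein, stood at 1210 and 303 ppm, COL1A1, of type I collagen, at 687 and 126 and SERPINH1, the collagen chaperone, at 331 and 33.3. TGFBI, at 1700 and 1440, and PLOD2, at 61.1 and 64, lay within 2-fold. Against like GC the median was -0.70, with 6 of 15 at least 2-fold below, against 11.1% over all transcripts, and 0 above. Of the mesenchymal markers 4 of 6 with enough stops (66.7%) were at least 2-fold lower. COL1A1, SPARC and FN1 stand in both the marker and the matrix list and VIM in the cytoskeleton list, so that the lists are not separate, and a change in the makeup of the culture was not tested. For the cytoskeleton, 21 of 42 were at least 2-fold lower and 4 (9.52%) higher, against the same 28.3% and 14.3%, with a median of -1.04. TMSB4X, which binds monomeric actin, stood at 1600 and 3290 ppm, and VIM, vimentin, at 3490 and 2990. ER chaperones had 7 of 20 (35%) at least 2-fold lower and 0 higher with a median of -0.48, where 28.3% were lower over all transcripts, with CALR (1190 and 195 ppm), P4HB (897 and 151) and HSPA5 (695 and 239) among the 7.

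Transcripts of the amino acid response were spread on both sides. ASNS, asparagine synthetase and a target of ATF4, stood at 56.8 and 193 ppm (log2 ratio 1.76), CEBPG at 42.4 and 112 and MTHFD2 at 507 and 955. ATF4 itself stood at 542 and 361 (log2 ratio -0.59), SLC7A5, an amino acid transporter, at 222 and 29.9 and PYCR1 at 248 and 43.6. Of 26 transcripts, 4 (15.4%) were at least 2-fold higher and 9 (34.6%) lower, near the 14.3% and 28.3% over all transcripts, and the median was -0.38, or 0.45 against like GC. Lysosome and autophagy transcripts had 4 of 31 higher (12.9%), 11 lower (35.5%) and a median of -0.42, near the 14.3% and 28.3% over all transcripts. Subunits of the vacuolar ATPase lay at both ends, with ATP6V1C1 at 91.4 and 271 and ATP6V0C at 329 and 36.3 ppm, and SQSTM1, an autophagy receptor, stood at 267 and 119.

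Of 38 mitosis transcripts, 10 (26.3%) were at least 2-fold higher and 9 (23.7%) lower, against 14.3% and 28.3% over all transcripts, with log2 ratios from -3.11 to 3.26, and the median against like GC was 0.09. CDK1, the mitotic kinase, stood at 457 and 1100 ppm, and PLK1, another mitotic kinase, at 191 and 22.2. The proteasome had 7 of 41 higher (17.1%) and 10 lower (24.4%), near those shares, with a median of -0.03. Cytosolic chaperones had 2 of 29 higher (6.9%) and 8 lower (27.6%), the latter near that over all transcripts, with a median of -0.03. Sterol and lipid synthesis had 0 of 14 higher and 5 lower (35.7%, median -0.63), and histones 0 of 8 higher and 4 lower (median -0.89). Only 3 FOXO and quiescence transcripts had enough stops, and CDKN1A, at 381 and 79.9 ppm, was the 1 past 2-fold. On the totals the medians of ribosomal proteins, serum-responsive, glycolysis and matrix transcripts were 0.81, -1.68, -1.26 and -1.35. Some of the counts moved more than these medians. On the totals, where 6.93% of all transcripts were 2-fold higher and 23.8% lower, the amino acid response had 1 of 26 higher and 6 lower, lysosome and autophagy 1 of 30 higher and 8 lower, translation factors 3 of 44 higher and 8 lower, the proteasome 4 of 41 higher and 8 lower and the cytoskeleton 1 of 41 higher and 22 lower. Glycolysis had 1 of 14 higher and 8 lower, and mesenchymal markers had a median of -1.72.

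**Figure D2:**
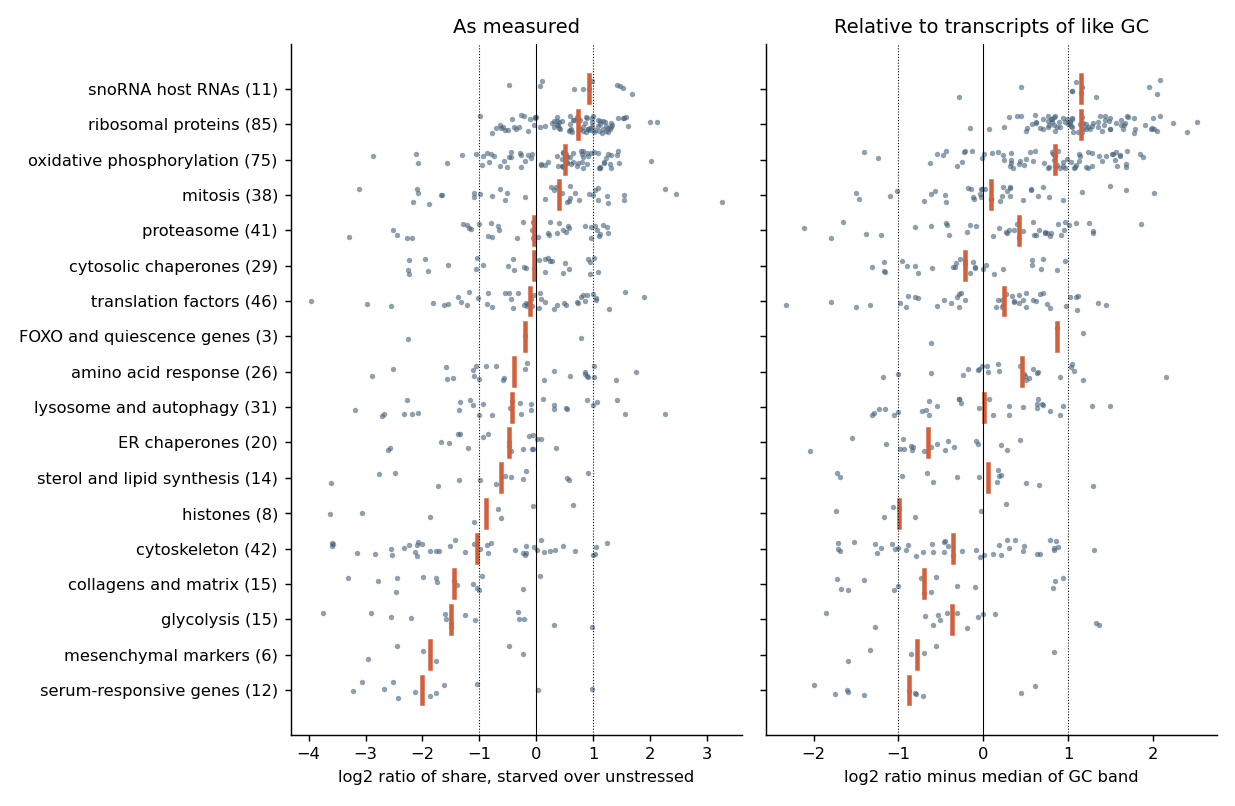
Each point is a transcript of a gene list, with the number of transcripts in brackets, by its log2 ratio of starved over unstressed share (left) and by that ratio minus the median of its GC band (right). Orange bars are medians and dotted lines mark 2-fold, and ribosomal proteins sit at 0.74 and 1.15 while serum-responsive genes sit at -2.01 and -0.88.

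The 44 noncoding transcripts with enough stops had 16 at least 2-fold higher and 3 lower, against 14.3% and 28.3% over all transcripts, with a median of 0.64. BCYRN1, a short primate-specific noncoding RNA with an Alu-like 5′ domain, stood at 12919 and 87010 stops, or 994 and 3620 ppm, a log2 ratio of 1.87. Isolated RNA gave 990 to 1440 ppm for BCYRN1, so that the unstressed library was at the low end of that range and the starved library above it.

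The share of stops at each base also differed. At C it was 24.80% in unstressed cells and 14.62% in starved cells, and at G it was 9.02% and 16.22%. At U it went from 2.62% to 5.57%, and at A it was 63.56% and 63.59%. In vitro in K+, the shares were 65.86% at A, 18.07% at C, 12.22% at G and 3.84% at U, so that the unstressed library was above and the starved library below the in vitro K+ library at C, with the reverse at G. The 2 libraries without DMS had 33.61% and 35.34% at A, 17.46% and 17.11% at C, 25.65% and 23.48% at G and 23.28% and 24.08% at U, so that both in vivo libraries were below them at G and U. The intervals of all these shares from counting were 0.05 percentage points wide or less.

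**Figure D3:**
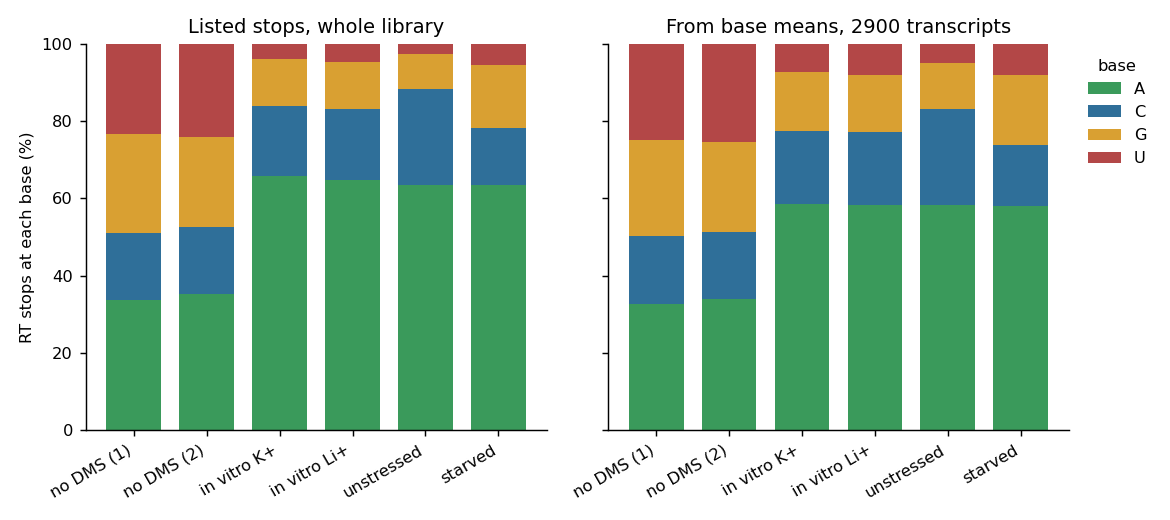
Stacked bars give the percentage of RT stops at A, C, G and U in each of the 6 libraries, from listed stops of the whole library (left) and from base means times composition over 2900 transcripts (right). C is at 24.80% and 14.62% on the left and at 24.80% and 15.85% on the right in the unstressed and the starved library, and G goes the other way.

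Nearly all transcripts showed the same exchange. The share at C was lower in the starved library in 2967 of 2998 transcripts (99%), with medians of 21.3% and 13.2%, and the share at G was higher in 2987, with medians of 5.87% and 14.2%. A and C together were lower in 2989 (99.7%), with medians of 92.8% and 81.9%. The share at A alone was lower in 2075 and higher in 922. Stops at G and U are the rarer ones, and more of them lie below the listing limit in the shallower library. With base means times composition, which include those stops only for a base with a listed nucleotide, the median share at C was 23.0% and 15.8%, at G 11% and 17.3% and at A 60.8% and 58.5%. All 4 bases had such a nucleotide in 2651 of 2900 transcripts in the unstressed and in 2881 in the starved library. Per nucleotide, the density of stops at C relative to A was 0.472 in the unstressed, 0.347 in the starved and 0.386 in the in vitro K+ library, and that at G relative to A was 0.209, 0.345 and 0.288. Over nucleotides listed in both libraries, the median difference of the A or C share shrank to -1.16 percentage points and that at A turned to 1.98, while that at C was -3.86.

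A few transcripts departed from the rest. The A and C share fell most in AMPD2, an AMP deaminase, by 45.1 percentage points to 41.1%, then in THOC6, of the mRNA export complex THO, by 33.6 to 56.4%, and in PIM3, a kinase, by 27.6 to 56.4%. The A and C share was higher in the starved library in PHIP (9.46 percentage points), RAB12 (4.36), TMEM120A (3.89), ERBB3 (3.83) and BCYRN1 (3.53). For PHIP and RAB12 the sign turned on the totals, where the differences were -12.36 and -3.74. PHIP had no listed stop at G in the unstressed library (0.0%, against 4.36% in the starved library). Its unstressed total therefore holds no G, which by itself lowers the difference.

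By region, the share of A and C stops was lower in starved cells in the 5′ UTR (80.1% and 66.9%), the coding sequence (87.7% and 76.7%) and the 3′ UTR (88.1% and 78.9%). Within transcripts it was lower in 386 of 388 5′ UTRs, 2190 of 2217 coding sequences and 2744 of 2759 3′ UTRs with enough stops. The 3′ UTR held 48.9% of stops in the unstressed, 41.6% in the starved and 36.4% in the in vitro K+ library. Inside transcripts this shift between starved and unstressed cells was small: the log2 ratio of 3′ UTR over coding stops had a median of -0.06 over 2110 transcripts and was lower in 1148 of them. Along the transcript the 2 in vivo libraries were close to each other, with 44.5% and 45.2% of stops in the last 3 of 10 equal bins, against 26.9% to 28.1% in the isolated-RNA libraries. The last bin held 17.0% in unstressed cells and 19.6% in starved cells.

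**Figure D4:**
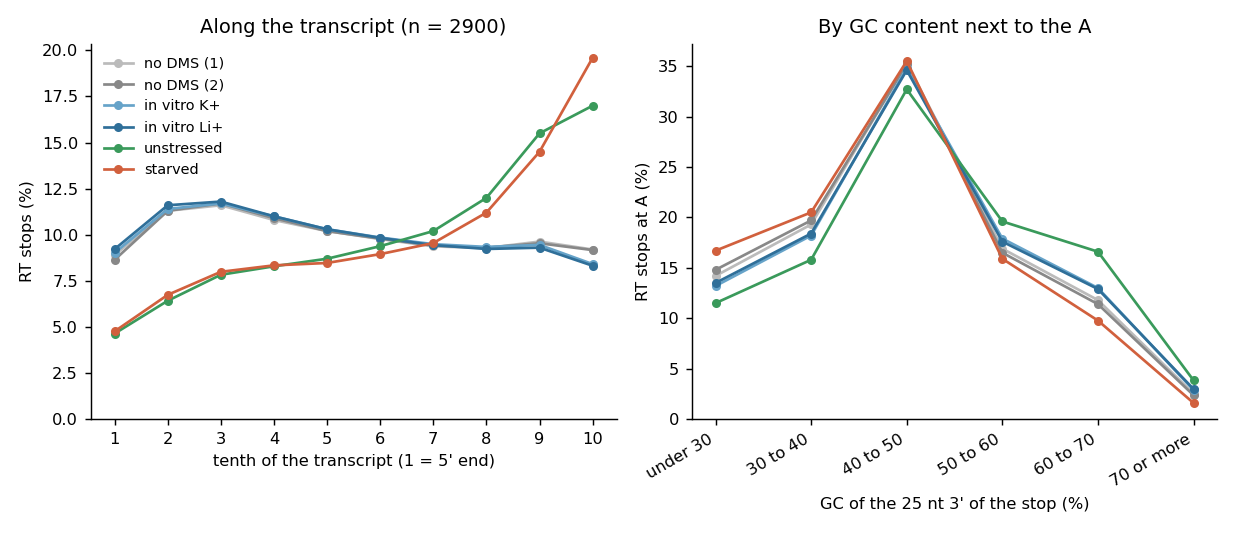
The left panel gives the percentage of RT stops in each of 10 equal bins from the 5′ end (1) to the 3′ end (10) of 2900 transcripts, and the right panel the percentage of stops at A by GC content of the next 25 nt, with 1 line per library. Both in vivo lines climb toward the 3′ end, to 17.0% and 19.6%, and in the right panel the starved line is highest under 30% GC (16.7%) and the unstressed line highest at 70% or more (3.84%).

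Where in a transcript the A and C stops lay was compared by the Pearson correlation of stop counts over A and C nucleotides listed in at least 1 of the 2 libraries. Over 2985 transcripts the median r was 0.42, and it rose with depth, from 0.09 for 773 transcripts with 500 to 1000 unstressed stops to 0.80 for the 212 with 10000 or more. For in vitro K+ with Li+ the median r was 0.55, and it was higher than that of the in vivo pair in 2471 of 2984 transcripts. For the 2 libraries without DMS it was 0.36, below that of the in vivo pair. The in vitro libraries listed 21480565 and 31174408 stops, against 12999691 and 24014417 in vivo, and no r at like depth between pairs was computed. At G and U the in vivo pair had a median r of -0.04. An unlisted nucleotide counted as 0 and entered only through the other library, which by its construction pushes r down in shallow transcripts. With every A and C of the transcript included the median r was 0.62, and over nucleotides listed in both libraries it was 0.45. All of these values describe nucleotides that share libraries and depth, and none is a test.

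**Figure D5:**
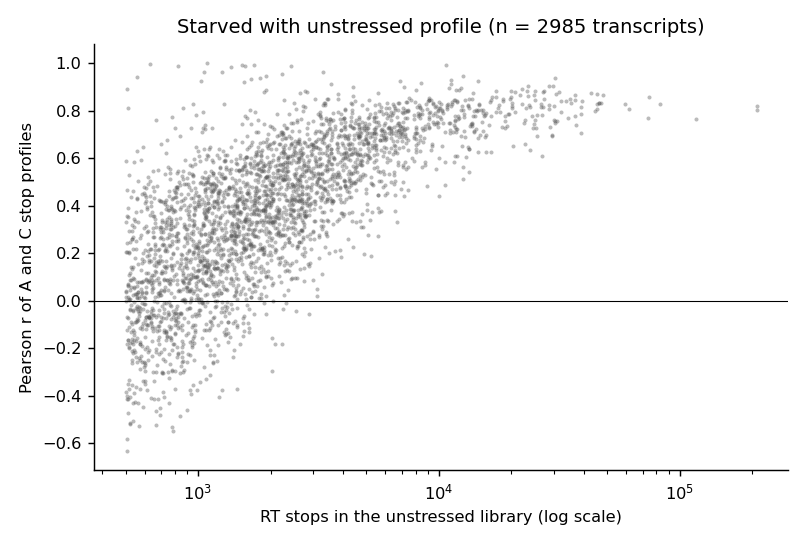
Each point is a transcript, with its RT stops in the unstressed library on a log x axis and the Pearson r between its starved and unstressed A and C stop profiles on the y axis. The cloud climbs from a median of 0.09 at 500 to 1000 stops to 0.80 at 10000 or more.

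In some of the transcripts with the highest profile correlations 1 nucleotide held most of the stops. VPS39, ARHGEF26, FOXP1, RPLP0P2 and PAGR1 had r of 0.99 or more over 30 to 162 nucleotides, and the top nucleotide held 86.9% and 94.2% of A and C stops in VPS39 and 77.6% and 80.8% in ARHGEF26. Without it r was -0.77 in VPS39 and 0.46 in ARHGEF26, while it was 0.91 or more in FOXP1, RPLP0P2 and PAGR1. Among the lowest were NFATC3 (-0.63), RNF213 (-0.58), HIF1AN (-0.53) and GSK3B (-0.53), all with 506 to 778 unstressed stops. With every A and C included their r was 0.19, 0.22, 0.24 and 0.26. Among abundant transcripts ACTB had an r of 0.86, RPLP0 0.86, TUBB 0.83, GAPDH 0.82 and EEF1A1 0.81, each below its in vitro K+ with Li+ value of 0.96 to 0.98.

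Nucleotides with at least 100 stops in at least 1 of the 2 libraries were looked at singly. There were 23019 at A or C on 433 transcripts, 18297 of them at A. As a share of the A and C stops of their transcript, 2395 were at least 2-fold higher in the starved library, 1171 at least 2-fold lower (15.5% past 2-fold in all) and 84.5% within 2-fold. More of them enter through the deeper starved library, so nothing is read from the balance of higher and lower ones. Nucleotides among those with the largest change, 1 per transcript, are shown because each is a single position whose share of its transcript differed between the 2 libraries. The windows hold up to 15 bases on either side (GRCh37), with the nucleotide of the stop in capitals.
NUP153 position 733, chr6:17675788-17675817, minus strand, coding sequence of exon 3: ctctcagcatgatgAtgataacatctcaac
TMEM120A position 1461, chr7:75616150-75616179, minus strand, 3′ UTR in exon 12: ggcaaatacagaaaAcagaactttattcca
SOWAHC position 4643, chr2:110376539-110376567, plus strand, 3′ UTR in exon 1: tttgtgaaaataaaAtgttcacagtagaa
ZNF485 position 1871, chr10:44113154-44113183, plus strand, 3′ UTR in exon 5: tgattgtgcatgtgAatagccactgcactc
PHIP position 5803, chr6:79650284-79650313, minus strand, 3′ UTR in exon 40: tagggaatgttatgAtttgatttgcaaaaa
FAM107A position 2121, chr3:58551173-58551202, minus strand, 3′ UTR in exon 5: gatgcaattctagcCaaaaaaaaaaaaaaa

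The A of NUP153, a nucleoporin, had 58 stops in unstressed cells and 615 in starved cells, 7.68% and 49.4% of the A and C stops of its transcript. That nucleotide also had 140 and 158 stops in the 2 libraries without DMS and 108 and 141 in the in vitro libraries, so that stops there were present with no DMS. In TMEM120A the share of the shown A was 18.6% and 57.8% and in SOWAHC 6.30% and 29.5%. Falling nucleotides included the A of ZNF485 (59.8% and 40.4%), the A of PHIP (23.4% and 7.45%) and the C of FAM107A (71.2% and 58.8%), which precedes a run of A. The C of FAM107A had 4014 and 3646 stops in vivo and 5262 and 5337 without DMS. The C of ARAF at position 2493 (7.18% and 43.8%) and the A of SCN2A at position 184 (36.4% and 12.5%) belonged to the same group, and these transcripts were not matched here. The A of SLC25A37 at position 1536 stood at 37.2% and 23.6%.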

How the data were processed

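Per the labels and the methods of the study, the authors sequenced cDNAs of 20 to 45 nt from RNA fragments of 60 to 80 nt, removed duplicates, and mapped reads with Bowtie to an hg19 transcriptome at unique positions with no mismatch. The deposited count is the number of RT stops at a transcript nucleotide, listed from 3 upward, and the deposited ratio is that count over a mean. The methods describe a mean over the whole transcript. In the files count over ratio was a single value per transcript and base, so it was read as the mean of the same base. How the counting treated strand is not given in the sources used here.

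From these counts each transcript's share of its library was computed with Python 3.11.15, numpy 2.4.6, pandas 2.3.3 and scipy 1.17.1 for transcripts with at least 500 stops in both in vivo libraries. The log2 ratio has an exact conditional 95% interval for counting error. Transcripts were matched by symbol and by their listed bases to transcripts of GENCODE release 44, GRCh37 (10454 of 11031 with at least 15 listed bases, at 97% identity). GC content, base composition, length and bins are those of the matched transcript. It may be another, longer isoform than the one counted. Symbols came from RefSeq accessions (15375 of 15739, table assembly GRCh38.p14, used for names only).

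The members and all gene lists were chosen with earlier results of these data known. Named transcripts were the 15 largest ratios in each direction, the 10 with the most unstressed stops, up to 4 per list with the most stops, 5 per direction for A and C shares, profiles and nucleotides of at least 100 stops, the A nucleotides at both ends of local GC in the 3 transcripts with the most stops, and further list members picked after their values were seen. The GC bands, the length classes and the totals from means by GC band were added after the data were seen. The measures were tested on simulated counts. Labels and file names of the 2 libraries without DMS disagree on their cation, which is therefore not named. A few items that these rules select are not reported here.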

Additional observations from a re-analysis of the deposited data

How the results depend on the processing

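Limits are set by 1 library per condition and by the listing limit of 3 stops, which weighs most on the shallower unstressed library. Medians of alternatives are called moved when they left the order-statistic interval of the median, and counts when they changed over 1.5 times. No paired analysis was possible because each condition had 1 library and no label gave a replicate number. No replicate could be left out. The causes of the changes below were not tested, except where fewer transcripts were compared by construction.

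With a minimum of 200 stops in both libraries 751 of 4622 transcripts were at least 2-fold higher and 1468 lower (median log2 ratio -0.20). With 1000 stops it was 245 and 488 of 1938, and with 2000 stops 123 and 212 of 1055 (median -0.03). Centring on the median gave a median of 0.00 with 554 higher and 745 lower. Stops at A and C only gave 418 and 833, and stops at G and U only gave 973 higher and 724 lower, with the median turned to 0.28. Thinning the starved library to the unstressed total left 2192 transcripts, because those with few starved stops fell below the minimum. Of these, 396 were lower and 403 higher, and the median turned to 0.14. Nucleotides listed in both libraries gave 78 higher and 550 lower of 2378 transcripts (median -0.41), and totals from the deposited means gave 201 higher of 2900 (median -0.24). At 1.5-fold 810 were higher, and at 3-fold 98 were higher and 498 lower. Relative to the GC band, an alternative chosen after seeing the data, 323 were lower (median 0.00). Leaving out the top nucleotide of each transcript moved none of these 3 values.

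The median differences of the shares at A, C, G, U and at A or C were -0.12, -8.22, 6.72, 1.45 and -8.26 percentage points after thinning, against -2.75, -7.81, 8.13, 2.19 and -10.54 as reported. Over nucleotides listed in both they were 1.98 (turned), -3.86, 1.17, 0.00 and -1.16, and 1795 of 2378 transcripts were lower at A or C. From the deposited means they were -7.12 at C, 6.37 at G, 3.01 at U and -9.67 at A or C. With minimums of 200, 1000 and 2000 stops they were -1.96, -3.27 and -3.72 at A, 7.72, 8.29 and 8.29 at G, 1.79, 2.62 and 3.12 at U, and -9.79, -10.98 and -11.41 at A or C. Transcripts with a lower share at C then numbered 4487 of 4622, 1927 of 1938 and 1053 of 1055, and those lower at A or C 4562, 1935 and 1054.

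The median profile correlation was 0.28 by Spearman, 0.11 on log2 of count plus 1 (135 transcripts at 0.8 or above, against 205), 0.45 over nucleotides listed in both, 0.38 after thinning, 0.38 without the top nucleotide, 0.23, 0.55 and 0.68 with minimums of 200, 1000 and 2000 stops, and 0.62 with every A and C (382 at 0.8 or above), which was chosen after seeing the data. Signs turned for VPS39 (-0.63 by Spearman, -0.77 without the top nucleotide) and ARHGEF26 (-0.35 by Spearman). Over nucleotides listed in both, NFATC3, RNF213 and GSK3B had 0.18, 0.24 and 0.16, and with every A and C NFATC3, RNF213, HIF1AN and GSK3B had 0.19, 0.22, 0.24 and 0.26. The A or C differences of PHIP and RAB12 turned to -12.36 and -3.74 on the totals from means, where the unstressed total of PHIP holds no G. Single transcripts were followed through the alternatives only if named for the largest ratios, the most stops or the most stops of a list. None of the 58 of these past 2-fold changed sign under the alternatives for transcript shares in which they had enough stops. Other named transcripts past 2-fold were not followed. Set against the median of their GC band, SQSTM1 (-1.16 to 0.47), TPI1 (-1.49 to 0.14) and PIM3 (-1.50 to 0.39) turned sign. Others kept it, such as PLK1 (-3.11 to -1.47).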

Other observations

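Transcripts with at least 500 stops in only 1 in vivo library numbered 758 in unstressed cells and 1241 in starved cells, and they are not among the 2998 transcripts with enough stops in both. Those with the most stops in the starved library, chosen after their values were seen, were CENPE, a kinetochore kinesin (383 and 6717 stops in the unstressed and the starved library), UGDH-AS1 (337 and 6326), RB1CC1, a scaffold of autophagy initiation (459 and 6325), LARP7, which binds 7SK RNA (248 and 5545), and TAF1D (435 and 5189). Their GC content was 35.1% to 42.8%. On the unstressed side they included TGM2, a transglutaminase (3713 and 447), MBOAT7 (3444 and 364), GPC1, a glypican (3429 and 228), and FURIN, a proprotein convertase (3382 and 314), at 54.7% to 66.7% GC.

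The base 3′ of a stop differed as well. Of stops at C, 36.3% in unstressed cells and 45.4% in starved cells were followed by A, against 42.4% in the in vitro K+ library, and of stops at A 32.4% and 37.7% were followed by A, against 36.4%.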
